A study of Mus musculus with 13 samples.

Results

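A set of 10 genes, of the Trem2-Tyrobp receptor system and of activated microglia, was followed in the CA1 region of mouse hippocampal tissue cultures: Aif1, Trem2, Tyrobp, Cd68, Itgax, Cst7, Lpl, Spp1, Clec7a and Axl. They were chosen by name, and all 10 symbols were present among the 55291 symbols of the count tables. The tissue came from organotypic entorhino-hippocampal cultures of wildtype C57BL/6 mice, in which RNA sequencing covered 13 CA1 isolates. The 5 control cultures were not lesioned. In the 4 SCL cultures the Schaffer collaterals were cut between CA3 and CA1, and in the 4 ECL cultures the perforant path from the entorhinal cortex was cut. Each library held a single CA1 isolate, taken 3 days after the lesion without the scar, from cultures of either sex that had been prepared in the first postnatal week and matured for weeks before the cut. Cultures contain the microglia of the slice but no blood supply, which limits them as a model of recruited blood cells.

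Trem2 is a lipid-sensing receptor on the surface of microglia. It has no signalling tail of its own and pairs with Tyrobp (also called DAP12), an adaptor whose cytoplasmic motif recruits the kinase Syk. In models of neurodegeneration and demyelination, signalling through this pair accompanies a shift of microglia from a resting to an activated state, in which genes for phagocytosis, lysosomes and lipid handling rise, among them Cst7, Lpl, Spp1, Clec7a, Itgax and Axl. Aif1 encodes Iba1, the protein most used to stain microglia, and Cd68 encodes a lysosomal glycoprotein of phagocytes.

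Library totals ran from 14371152 to 56786613 counts. The totals of SCL libraries (16405517 to 56786613) and ECL libraries (20210165 to 46449937) reached higher than those of controls (14371152 to 21092612). Levels are given below as normalized CPM (counts per 1000000 counts of the library), scaled between libraries by trimmed means over well-covered genes. The labels name CA1 as the tissue, while their extraction text speaks of the dentate gyrus. Against 4 markers of each, the summed level of the CA1 list was 185.5 to 392.9 CPM over all groups and that of the dentate list was 12.0 to 24.1 CPM. One further property separated lesioned from control libraries. Genes with transcripts under 1000 bases stood lower relative to genes with transcripts over 4000 bases in every control (median log2 deviation of the first minus that of the second, -0.589 to -0.184) than after SCL (0.073 to 0.451) or ECL (0.144 to 0.375). This length balance and the lesion cannot be told apart, so the members and the genes named from lists were also fitted with an offset for transcript length and GC content. That value is given for each call it changed, and for all 5 members that rose.

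Trem2, Tyrobp, Aif1, Cd68 and Cst7 rose after both lesions, whereas Spp1, Lpl, Axl and Clec7a did not pass the test and Itgax was below the minimum count for testing. Across the 9 members tested, 5 were thus called higher and 0 lower after SCL (edgeR's quasi-likelihood test, adjusted p under 0.05), where 13.1% of the 11438 genes tested were called higher and 11.8% lower. After ECL the count was likewise 5 higher and 0 lower, against 15.2% higher and 12.5% lower among 11212 genes. These backgrounds move with single libraries: the 1504 higher calls after SCL became 919 without SCL replicate 3, the 1344 lower calls 760 without it and 853 without SCL replicate 2, and the 1406 lower calls after ECL 839 without ECL replicate 4. The same 5 members had groups without overlap, for which the share of all tested genes was 12.1% higher after SCL and 12.8% higher after ECL. The median log2 fold change of the 9 members was 1.18 after SCL and 0.82 after ECL, beside medians of 0.01 and -0.01 over all genes tested. List medians here and below are without the length and GC offset. Both comparisons share their controls. With scale factors over all symbols instead of the genes tested, the median of all genes shifted to 0.21 after SCL and 0.18 after ECL, and higher calls made up 80.8% and 77.8% of all calls in place of 52.8% and 54.8%, while these 5 members stayed called and Axl joined them after SCL (0.48). The 5 called members have transcripts of 597 to 1230 bases and the 4 others of 1507 to 4265 bases, so that the called members are also the shorter ones. With an offset for length and GC content, all 5 stayed called after SCL but only Tyrobp and Cst7 after ECL.

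Of these 5 genes, promoter windows were available for Trem2, Aif1, Cd68 and Cst7. RefSeq windows of 300 bases, from 250 before to 50 after the start site on build GRCm38.p6, are shown 5′ to 3′ on the strand of the gene for the receptor gene Trem2, for Cd68 and Cst7, and for Aif1, which held neither motif. Capitals mark the letters GAGGAAG (or CTTCCTC on the other strand), a core bound by the myeloid factor PU.1, and TGANTCA. The latter are the letters of the AP-1 site with any base allowed in the middle.
Trem2, chr17:48346151-48346450 (+ strand): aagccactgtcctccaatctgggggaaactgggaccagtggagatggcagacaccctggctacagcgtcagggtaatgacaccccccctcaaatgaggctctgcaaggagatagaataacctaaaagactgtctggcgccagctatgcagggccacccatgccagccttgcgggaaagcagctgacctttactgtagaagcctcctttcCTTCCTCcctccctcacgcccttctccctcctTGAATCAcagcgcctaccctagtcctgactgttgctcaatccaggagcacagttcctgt
Cd68, chr11:69666121-69666420 (- strand): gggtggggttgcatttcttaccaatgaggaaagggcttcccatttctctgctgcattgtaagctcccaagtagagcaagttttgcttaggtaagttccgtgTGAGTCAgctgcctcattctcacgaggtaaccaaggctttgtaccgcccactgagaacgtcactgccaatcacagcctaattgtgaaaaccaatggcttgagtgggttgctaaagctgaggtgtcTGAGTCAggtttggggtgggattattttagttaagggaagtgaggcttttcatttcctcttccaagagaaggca
Cst7, chr2:150570165-150570464 (+ strand): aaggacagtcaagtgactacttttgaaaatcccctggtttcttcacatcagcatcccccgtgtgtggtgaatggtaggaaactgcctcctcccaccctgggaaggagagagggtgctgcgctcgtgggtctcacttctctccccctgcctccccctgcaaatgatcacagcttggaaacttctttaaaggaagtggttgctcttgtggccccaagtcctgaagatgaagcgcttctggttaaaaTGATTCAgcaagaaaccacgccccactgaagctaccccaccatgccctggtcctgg
Aif1, chr17:35176003-35176302 (- strand): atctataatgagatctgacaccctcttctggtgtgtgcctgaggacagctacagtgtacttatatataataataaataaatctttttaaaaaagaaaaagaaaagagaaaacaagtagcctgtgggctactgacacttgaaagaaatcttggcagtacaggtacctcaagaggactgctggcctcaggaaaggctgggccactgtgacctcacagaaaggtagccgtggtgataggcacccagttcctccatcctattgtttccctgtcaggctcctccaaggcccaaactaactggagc
In the Trem2 window the PU.1 core began 41 bases and the AP-1 letters 9 bases before the start site, at positions -41 and -9. The middle base of these AP-1 letters was A in Trem2, T in Cst7 and G in Cd68. Cd68 held AP-1 letters at -149 and -24, and Cst7 at -6. Of all 32851 promoter windows, 13.63% held the PU.1 core and 7.81% the AP-1 letters, searched on both strands. Over the 8 members with a window, the PU.1 core lay in those of Axl, Spp1 and Trem2, and the AP-1 letters in those of Cd68, Cst7, Itgax and Trem2. The E-box CACGTG, present in 7.15% of all windows, lay in 0 of the 10 windows of these 8 genes. Windows for Tyrobp and Lpl were not analysed here. A match describes letters and is not evidence of binding.

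The receptor and its adaptor both rose after both lesions, the adaptor with the larger fitted fold change. Trem2 (chr17:48346401-48354147, plus strand) had 48.7, 51.1, 39.7, 37.1 and 35.7 CPM in controls 1 to 5. After SCL it had 84.9, 77.7, 96.2 and 83.1 CPM, and after ECL 70.1, 68.9, 83.5 and 75.8 CPM. Every lesioned library stood above every control, and the libraries within each group lay close together. The log2 fold change was 1.01 after SCL (SE 0.15, 95% interval 0.69 to 1.33) with an adjusted p of 0.00157, and 0.82 after ECL (SE 0.15, interval 0.49 to 1.14) with an adjusted p of 0.00174 (edgeR's quasi-likelihood test with Benjamini-Hochberg adjustment). With the length and GC offset the change was 0.58 for SCL (adjusted p = 0.00697, edgeR) compared with 0.28 for ECL (adjusted p = 0.118, edgeR), so the ECL call was lost.

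Tyrobp (chr7:30413760-30417585, plus strand) had 30.6, 37.6, 31.5, 20.3 and 14.8 CPM in controls. After SCL it had 66.5, 77.5, 386.7 and 79.1 CPM, and after ECL 90.5, 242.1, 101.9 and 211.2 CPM. All 8 lesioned libraries exceeded all 5 controls, but SCL replicate 3 stood far above the other SCL libraries, and the ECL libraries fell into a lower and a higher pair. The log2 fold change was 2.49 after SCL (SE 0.49, interval 1.44 to 3.55, adjusted p = 0.00479, edgeR) and 2.59 after ECL (SE 0.32, interval 1.90 to 3.27, adjusted p = 0.000153, edgeR). Without SCL replicate 3, which also had the highest length balance of all libraries (0.451), the SCL value was 1.47 and stayed called. With the length and GC offset both calls held, at 1.99 for SCL (adjusted p = 0.00562, edgeR) compared with 2.12 for ECL (adjusted p = 0.000194, edgeR). The part of the length balance in these values was not tested further.

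On a scale divided by transcript length, Tyrobp stood at 0.754 to 1.45 times the level of Trem2 in controls. The ratio was 1.43 to 7.32 after SCL, where the lowest library lay just inside the control range, and 2.22 to 6.41 after ECL, where all libraries lay above it. This ratio is given as a description, without a test. Dividing by length does not remove the length balance of a library. Tyrobp, at 597 bases, is in the class under 1000 bases and Trem2, at 1088 bases, is not. SCL replicate 3 (7.32) and ECL replicate 2 (6.41) had the highest ratios and the highest length balances (0.451 and 0.375), whereas ECL replicate 4 had 5.08 at 0.195. The part of the length balance in the ratio was not tested.

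**Figure D1:**
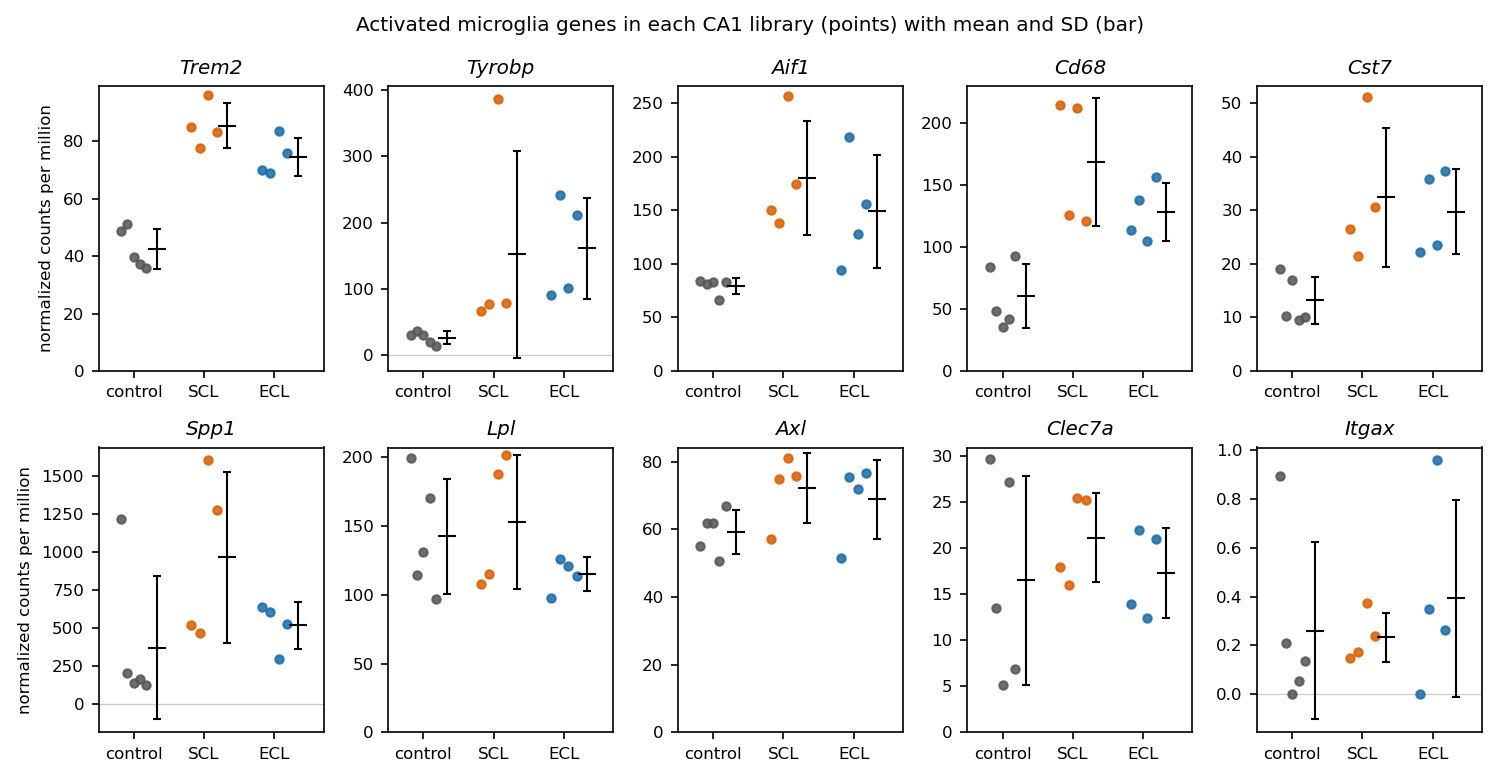
Normalized CPM (vertical axes, each from its own range) of the 10 genes in control, SCL and ECL libraries; each point is 1 library and the bars show the mean and SD. In the panels of Trem2, Tyrobp, Aif1, Cd68 and Cst7 all lesioned libraries lie above all controls, whereas the groups overlap in the other 5 panels and control replicate 1 stands apart for Spp1 at 1217 CPM.

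The general microglia and phagocyte markers rose with the receptor pair. Aif1 (chr17:35170991-35176068, minus strand) had 83.5, 81.4, 82.8, 66.5 and 83.2 CPM in controls. After SCL it had 150.5, 138.4, 256.6 and 174.1 CPM, and after ECL 94.5, 218.1, 127.6 and 155.7 CPM. The controls were nearly equal except replicate 4, which was lower, and ECL replicate 1 lay only slightly above the controls. Aif1 rose by a log2 fold change of 1.18 after SCL (SE 0.17, adjusted p = 0.00157, edgeR) and 0.91 after ECL (SE 0.20, adjusted p = 0.00454, edgeR). With the length and GC offset it was 0.75 after SCL (adjusted p = 0.00427, edgeR), whereas the ECL value of 0.45 no longer passed (adjusted p = 0.0964, edgeR).

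Cd68 (chr11:69664213-69666153, minus strand) had 83.9, 48.7, 35.3, 42.2 and 92.4 CPM in controls. After SCL it had 214.4, 126.0, 212.3 and 121.1 CPM, and after ECL 113.8, 137.4, 104.8 and 156.4 CPM. Controls 1 and 5 lay nearest to the lesioned libraries, without reaching them. The rise was 1.48 on the log2 scale after SCL (SE 0.29, adjusted p = 0.00462, edgeR) and 1.09 after ECL (SE 0.26, adjusted p = 0.00759, edgeR). Under the offset the values were 1.08 (adjusted p = 0.0132) and 0.68 (adjusted p = 0.0667), both by edgeR, and the second was not called.

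Cst7 (chr2:150570415-150578944, plus strand) encodes cystatin F, an inhibitor of lysosomal cysteine proteases. It had 19.0, 10.2, 16.9, 9.56 and 10.1 CPM in controls, 26.5, 21.4, 51.1 and 30.6 CPM after SCL, and 22.3, 35.8, 23.6 and 37.2 CPM after ECL. Lesioned and control libraries did not overlap, and SCL replicate 3 was again the highest. Cst7 rose by 1.30 after SCL (SE 0.29, adjusted p = 0.00762, edgeR) and by 1.18 after ECL (SE 0.26, adjusted p = 0.0045, edgeR) on the log2 scale. Both calls held under the offset, at 0.89 (adjusted p = 0.0308, edgeR) and 0.75 (adjusted p = 0.0402, edgeR).

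Spp1, Lpl, Axl and Clec7a did not pass the test after either lesion. Spp1 (chr5:104435118-104441050, plus strand) encodes the secreted protein osteopontin. It had 1217, 203.7, 137.8, 164.7 and 124.8 CPM in controls, 516.4, 463.0, 1603 and 1276 CPM after SCL, and 638.8, 602.2, 293.5 and 526.7 CPM after ECL. Control replicate 1 alone reached into the range of the lesioned libraries, and the other 4 controls lay below all of them. The log2 fold change was 1.38 after SCL (interval -0.01 to 2.78, adjusted p = 0.132, edgeR) and 0.49 after ECL (interval -0.75 to 1.72, adjusted p = 0.562, edgeR). Without control replicate 1 both comparisons were called, with 2.61 for SCL (adjusted p = 0.00412, edgeR) compared with 1.71 for ECL (adjusted p = 0.000736, edgeR). In the same control, Lyz2, which encodes lysozyme of phagocytes, stood at 592.3 CPM against 132.9 to 213.0 CPM in the other controls. Ccl6, a chemokine gene, stood there at 57.6 CPM against 7.64 to 17.7 CPM. Both genes were picked after their values were seen, and their part in the Spp1 result was not tested. Of the exon bases of Spp1, 18.8% overlap those of Gm42793, and the counting took no account of strand.

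Lpl (chr8:68880491-68907448, plus strand) encodes lipoprotein lipase. It had 97.1 to 199.3 CPM in controls with a median of 131.4, 107.6, 114.8, 187.8 and 201.9 CPM after SCL, and 98.0, 126.3, 121.2 and 114.1 CPM after ECL. The 3 groups overlapped throughout, and the log2 fold changes were 0.10 after SCL (interval -0.41 to 0.61, adjusted p = 0.78, edgeR) and -0.30 after ECL (interval -0.72 to 0.11, adjusted p = 0.262, edgeR).

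Axl (chr7:25757273-25788705, minus strand) encodes a receptor tyrosine kinase for apoptotic cells tagged by Gas6. It had 50.7 to 66.9 CPM in controls, 57.2, 74.8, 81.1 and 75.7 CPM after SCL, and 51.5, 75.5, 71.9 and 76.5 CPM after ECL. In each lesion group 3 libraries lay above all controls and the first lay within them. The log2 fold change was 0.28 after SCL (interval -0.02 to 0.59, adjusted p = 0.157, edgeR) and 0.22 after ECL (interval -0.11 to 0.55, adjusted p = 0.3, edgeR). With the length and GC offset the SCL value was 0.36 and passed (adjusted p = 0.0463, edgeR).

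Clec7a (chr6:129461591-129472779, minus strand) encodes dectin-1, a receptor for beta-glucans. Controls ranged from 5.14 to 29.6 CPM, a spread that contained all 4 SCL libraries (16.03 to 25.4 CPM) and all 4 ECL libraries (12.4 to 22.0 CPM). The log2 fold changes of 0.36 (interval -0.57 to 1.29) and 0.08 (interval -0.85 to 1.00) left changes in either direction possible. Itgax (chr7:128129547-128150657, plus strand), which encodes CD11c, was close to the limit of detection. It had 0 to 16 counts per control library, 4 to 14 after SCL and 0 to 20 after ECL, and was below the minimum for testing. Fitted among all genes with at least 1 count, Itgax was not called in either lesion (edgeR), with log2 values of 0.013 for SCL (adjusted p = 0.995) compared with 0.68 for ECL (adjusted p = 0.633). A count of 0, as in control replicate 3, allows up to 0.203 CPM, for counting error only.

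**Figure D2:**
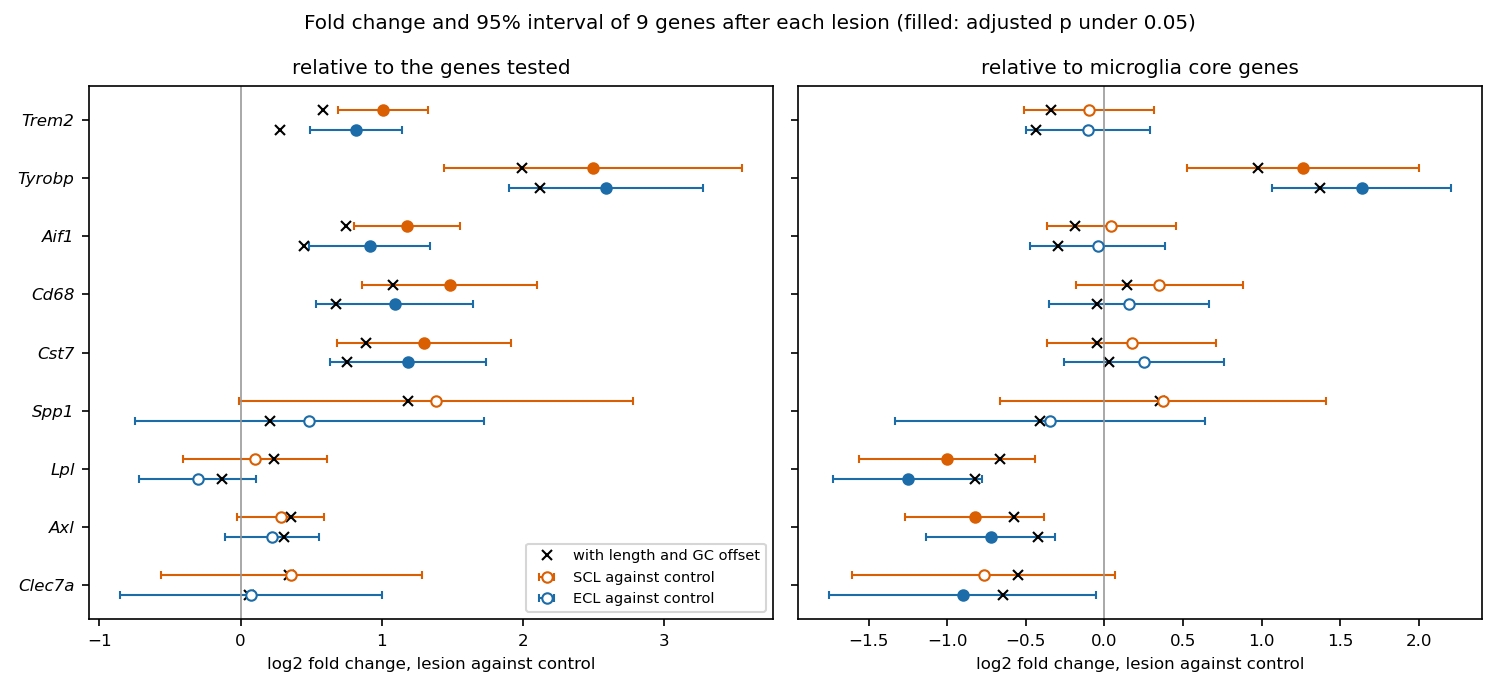
Log2 fold change against control (horizontal axes) of the 9 tested genes with 95% intervals for SCL and ECL; filled points passed an adjusted p of 0.05 and crosses give the value with the length and GC offset. Relative to all genes tested (left) 5 genes rose after each lesion, and relative to microglia core genes (right) Tyrobp is the gene that stays to the right of 0 with an interval that excludes it.

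Compared per kilobase of transcript, Spp1 had the highest mean level in controls at 245.2 CPM per kilobase, with an SD of 314.9 that came mostly from 1 library. Aif1 followed at 90.9 ± 8.35 (SD, n = 5), then Cd68 at 49.2 ± 21.04, Tyrobp at 45.1 ± 15.4, Trem2 at 39.0 ± 6.42 and Lpl at 34.6 ± 10.2. The last 4 lay within their SDs of each other. Axl at 13.9 ± 1.51 and Cst7 at 13.3 ± 4.51 could not be ranked, and Clec7a at 7.23 ± 4.98 and Itgax at 0.0639 ± 0.0899 closed the order. After SCL, Spp1 (640.1 ± 374.8, n = 4), Tyrobp (255.4 ± 261.7) and Aif1 (205.6 ± 60.8) had the highest means and overlapped. Without SCL replicate 3, Tyrobp stood at 124.6 ± 11.5 CPM per kilobase (n = 3), below Aif1 at 176.4 ± 20.8 and beside Cd68 at 125.1 ± 42.7 in the same 3 libraries. After ECL the same 3 genes led, with Spp1 at 341.9 ± 102.9, Tyrobp at 270.4 ± 128.1 and Aif1 at 170.3 ± 59.9 CPM per kilobase.

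No member differed between the lesions by edgeR's test. ECL against SCL called 0 of 12232 genes (0%), with 897 genes and 1 member, Spp1, at an unadjusted p under 0.05, while DESeq2 called 10 genes higher and 52 lower, none of them a member. Spp1 was lower after ECL by 0.90 on the log2 scale (interval -1.76 to -0.03, adjusted p = 0.672, edgeR). The intervals of the other differences remained wide for Tyrobp (-1.12 to 1.31) and Aif1 (-0.83 to 0.31) and narrower for Trem2 (-0.46 to 0.09). Of the 9 differences, 8 were negative, with a median of -0.26, but the missed threshold does not show that the lesions act alike. By the column headings, all SCL libraries but replicate 4 were female and all ECL libraries but replicate 1 were male. Sex and lesion thus largely coincided in this comparison.

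The rises were set beside those of other microglia genes. Of 16 core genes shared by all microglia, 15 were tested, of which 12 were called higher in SCL cultures and 9 in ECL cultures, and 0 lower in either. Of all genes tested, 13.1% and 15.2% were called higher. The median log2 fold changes of the core genes were 1.12 and 0.84. Fcgr3, an Fc receptor gene, rose by 2.27 and 2.31 (adjusted p = 0.000511 and 6.86e-05, edgeR). C1qb, a complement component gene, rose by 1.36 and 1.53 (adjusted p = 0.0034 and 2.39e-05, edgeR). The summed core level was 1121 to 1371 CPM in controls, 2030 to 3620 CPM after SCL and 2072 to 2891 CPM after ECL. In whole tissue, a change in the number of microglia and a change in RNA per microglial cell cannot be told apart.

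Of 12 genes of resting microglia tested, 9 were called higher after SCL and 5 after ECL, beside 13.1% and 15.2% of all genes. In either comparison 0 were called lower, and the medians were 0.82 and 0.51. The SCL count was 5 without SCL replicate 2 and 5 with the replicate number as a block, and the ECL count was 3 without control replicate 1, ECL replicate 2 or ECL replicate 4. Olfml3 rose by 1.33 (adjusted p = 0.0013, edgeR) and 0.99 (adjusted p = 0.000994, edgeR), and the Fc receptor-like gene Fcrls by 1.28 (adjusted p = 0.00213, edgeR) and 0.77 (adjusted p = 0.0104, edgeR). Cst3, the abundant cystatin C gene, rose by 0.54 (adjusted p = 0.0319, edgeR) and 0.89 (adjusted p = 0.00181, edgeR), but neither call held with the length and GC offset (0.097 and 0.33, adjusted p = 0.563 and 0.0573, edgeR).

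Expressed relative to the geometric mean of the core genes, neither Trem2 nor the markers passed the test. Trem2 stood at -0.10 after SCL (interval -0.51 to 0.32) and -0.10 after ECL (interval -0.50 to 0.29), and Aif1 at 0.04 (interval -0.37 to 0.46) and -0.04 (interval -0.47 to 0.38). With other genes as the scale, Trem2 after both lesions and Aif1 after ECL changed sign. Aif1 after SCL was at most 0.43 in the alternatives, and 1 of them called it higher. With the length and GC offset Trem2 was called lower after ECL (-0.43, adjusted p = 0.0212, edgeR). Cd68 and Cst7 lay between 0.15 and 0.35 with intervals that included 0. Among the members, Tyrobp alone was called higher, by 1.26 after SCL (SE 0.35, adjusted p = 0.00275, edgeR) and 1.64 after ECL (SE 0.27, adjusted p = 4.8e-05, edgeR). On this scale 0.420% and 1.57% of all genes tested were called higher. The SCL value of Tyrobp was 0.49 without SCL replicate 3 and then missed the threshold (adjusted p = 0.0862, edgeR). Core genes also departed from their own mean in both directions. Of the 15 tested, 3 were called higher and 3 lower in SCL cultures. In ECL cultures these calls numbered 5 and 5, so a higher call was not particular to Tyrobp. Lpl and Axl were called lower after both lesions, Lpl by -1.002 and -1.25 and Axl by -0.82 and -0.72, and Clec7a after ECL by -0.90 (adjusted p = 0.0487, edgeR). On this scale 84.5% of all genes were called lower after SCL and 76.4% after ECL, so these lower calls were shared with most genes. The Clec7a call was lost when any of 6 of the 9 libraries was left out, and when the length and GC offset was used (-0.65).

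**Figure D3:**
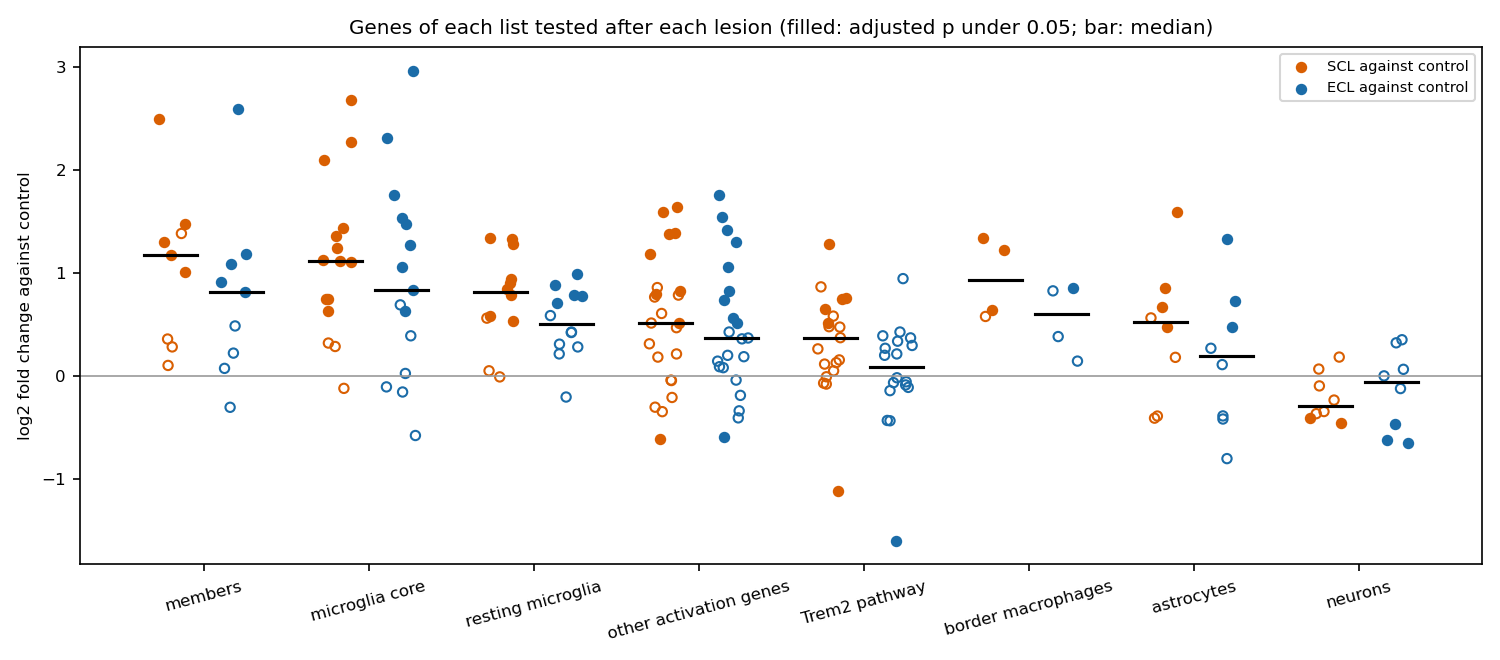
Log2 fold change against control (vertical axis) of each tested gene in 8 lists after SCL and ECL; each point is a gene, filled where the adjusted p was under 0.05, and bars mark list medians. Medians of the members (1.18 and 0.82) and of the microglia core genes (1.12 and 0.84) lie at similar heights, above those of the Trem2 pathway (0.37 and 0.09) and of neurons. All values shown are without the length and GC offset. With it, 2 members, 9 core genes and 2 pathway genes were called higher after ECL.

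The other genes of the Trem2 pathway are given beside the shares of all genes, 13.1% higher and 11.8% lower after SCL and 15.2% and 12.5% after ECL. Of 29 ligands, partner receptors, shedding proteases, kinases, adaptors and inhibitors, 19 were tested after SCL, where 5 were called higher and 1 lower, with a median of 0.37. After ECL 18 were tested, 0 were called higher and 1 lower, with a median of 0.09. The count of higher calls varied with the settings, between 2 and 11 for SCL and between 0 and 6 for ECL. It was 2 without SCL replicate 1 or 3 and 3 without SCL replicate 2, SCL replicate 4 or control replicate 3. Adam10, a protease that sheds Trem2 from the cell surface and that many brain cells express, fell from 301.8 ± 142.3 CPM (SD, n = 5) to 138.3 ± 26.1 CPM after SCL and 99.1 ± 15.2 CPM after ECL (n = 4 each). Its log2 fold changes were -1.12 (adjusted p = 0.012, edgeR) and -1.60 (adjusted p = 0.00101, edgeR). Csf1r, a growth factor receptor gene that is also in the core list, rose by 0.74 after SCL (adjusted p = 0.00708, edgeR), whereas it stood at 0.39 after ECL (adjusted p = 0.114, edgeR) and was called there with the length and GC offset (0.49, adjusted p = 0.0174, edgeR). Syk, the kinase downstream of Tyrobp, was below the minimum for testing in both comparisons.

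Among 27 further genes of activated microglia, 8 of 23 tested in SCL cultures were called higher and 1 lower. In ECL cultures 9 of 22 were called higher and 1 lower, with medians for SCL and ECL of 0.52 and 0.37. The count of higher calls was 6 to 10 for SCL and 6 to 11 for ECL without 1 library, and for SCL it was 15 among all genes with at least 1 count. The single lower call was lost without SCL replicate 2 or ECL replicate 4, each in its own comparison. It was also lost in both comparisons among all genes with at least 1 count and with scale factors over all symbols. With the length and GC offset, 2 were called lower in each comparison. Ctsb, a lysosomal protease gene, rose by 1.38 (adjusted p = 0.00126, edgeR) and 1.30 (adjusted p = 0.00028, edgeR). Cd9, a tetraspanin gene also expressed outside microglia, rose by 1.39 (adjusted p = 0.00087, edgeR) and 1.41 (adjusted p = 0.000454, edgeR). Of the relatives and ligands of Axl, Tyro3 rose by 0.46 (adjusted p = 0.0387, edgeR) and Pros1 by 0.52 (adjusted p = 0.0263, edgeR) after SCL, and 0 of the 4 were called after ECL. Of the integrin and osteopontin receptor genes, Itgb5 rose by 1.23 (adjusted p = 0.00427, edgeR) and 1.04 (adjusted p = 0.00516, edgeR). Itgb2, the partner chain of Itgax, rose by 0.82 after SCL (adjusted p = 0.0275, edgeR) and stood at 0.31 after ECL.

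Other cell types were checked beside these genes. Of all genes tested, 13.1% were called higher after SCL and 15.2% after ECL. Markers of border-associated macrophages, 8 genes of which 4 were tested, summed to 46.7 to 91.1 CPM in controls, 94.6 to 144.6 CPM after SCL and 77.5 to 116.0 CPM after ECL, with 3 and 1 called higher. The 4 tested, F13a1, Pf4, Ms4a7 and Stab1, had higher means after both lesions. The defining markers Mrc1, Cd163 and Lyve1 were below the minimum for testing and had lower means in lesioned cultures. Mrc1 stood at 3.73 ± 0.984 CPM in controls (SD, n = 5), 2.51 ± 0.687 CPM after SCL and 2.33 ± 0.577 CPM after ECL (n = 4 each). Cd163 had mean levels of 0.953, 0.345 and 0.277 CPM and Lyve1 of 1.08, 0.582 and 0.226 CPM in the same order. Of the tested genes, F13a1 rose by 1.23 (adjusted p = 0.00149, edgeR) and 0.86 (adjusted p = 0.00556, edgeR), and Stab1 by 0.64 after SCL (adjusted p = 0.0129, edgeR). The part of these cells in the rises above was not tested. Markers of neutrophils and lymphocytes were near 0 in every library, with a summed level of at most 2.64 CPM over 8 genes. Astrocyte markers were called higher for 4 of 8 genes after SCL and 3 after ECL, among them Gfap by 0.85 (adjusted p = 0.00243, edgeR) and 0.73 (adjusted p = 0.00202, edgeR). Neuron markers were called lower for 2 of 8 genes after SCL and 3 after ECL, beside 11.8% and 12.5% of all genes tested. The values of 2 of the 8 were positive after SCL and of 4 after ECL, with medians of -0.29 and -0.06. Among those called, Rbfox3 stood at -0.45 (adjusted p = 0.03, edgeR) and -0.65 (adjusted p = 0.0147, edgeR). Mog and Mbp of oligodendrocytes rose after both lesions, and Flt1 of endothelial cells fell after both. Of the CA1 markers, Pou3f1 fell by 0.82 after SCL on the log2 scale (adjusted p = 0.00669, edgeR).

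**Figure D4:**
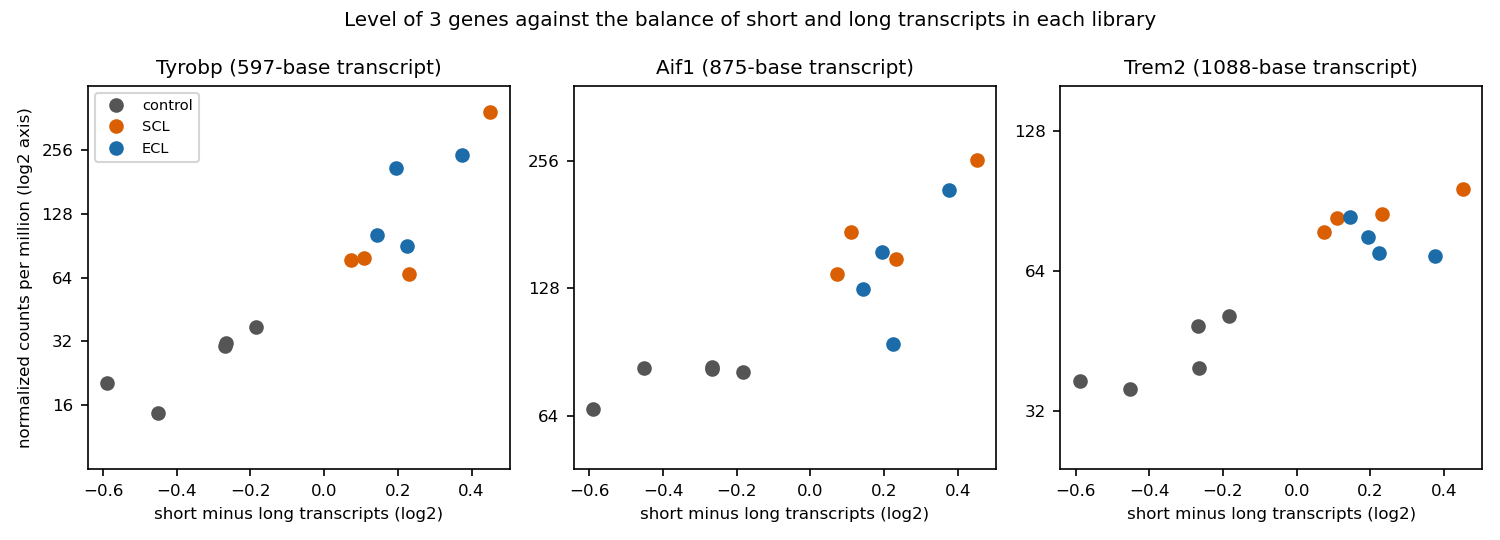
Normalized CPM on a log2 axis (vertical) of Tyrobp, Aif1 and Trem2 against the balance of short over long transcripts on the log2 scale (horizontal); each point is 1 library of the control, SCL or ECL group. Control libraries lie at -0.589 to -0.184 and lesioned libraries at 0.073 to 0.451, so that lesion and length balance change together, and SCL replicate 3 has the highest value on both axes of all 3 panels.

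The profiles nearest to Trem2 and Tyrobp over the 13 libraries were searched among 11648 genes, by the root mean square difference of log2 levels centred on each gene. Nearest to Trem2 were Atp5g1, a subunit gene of the mitochondrial ATP synthase, at 0.130, Vamp8, a vesicle fusion gene, at 0.130, Cela1 at 0.165, Ssr4 at 0.167 and Mmd2 at 0.171, where the SD of Trem2 itself was 0.50. Nearest to Tyrobp, whose SD was 1.42, were Rps19-ps6 at 0.431, Fxyd7 at 0.467, Ftl1 at 0.526, Ftl1-ps1 at 0.539 and Slc25a1 at 0.559. Rps19-ps6 and Ftl1-ps1 are near copies of other genes and their counts are uncertain. Of these 10 genes, those nearest to Trem2 have transcripts of 800 to 4715 bases and those nearest to Tyrobp of 438 to 1666 bases. None of the 10 belongs to the lists of microglia genes.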

How the data were processed

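RNA was sequenced as paired reads of 150 bases from a low-input poly(A) protocol with PCR amplification. Per the submitters' processing notes the authors used cutadapt 3.5, STAR 2.7.8a and featureCounts 2.0.1 on mm10 (GRCm38), counting on GENCODE genes without strand, and deposited raw counts per gene symbol. Between 63.0% and 74.3% of values from 1 to 20 were even, so mates were apparently counted separately. Totals were 14371152 to 56786613. Replicates are separate cultures, and the animals behind them are not given in the sources used here.

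Each pair of groups was fitted with edgeR 4.0.16 in R 4.3.3 (quasi-likelihood, two-sided, Benjamini-Hochberg, threshold 0.05) on genes whose normalized counts averaged 150 or more, with TMM factors over the genes tested, and again scaled to the geometric mean of microglia core genes. Coordinates, lengths and biotypes came from GENCODE on GRCm38, and levels per kilobase use the longest protein-coding transcript. Clec7a is annotated there as a polymorphic pseudogene. Members and lists were chosen with earlier results of these data known. Named were all 10 members, up to 2 called genes per list and lesion with the smallest adjusted p, and the 5 nearest profiles to Trem2 and Tyrobp. A core gene that this rule names is not reported here. Alternatives were DESeq2 1.42.0, other minimums and scalings, a single fit, a replicate block, a sex term (sex from the column headings), halved counts and leaving out each library. The length and GC offset (mgcv 1.9.3) was added after seeing the data, for members and named list genes. Code was tested on simulated data. Counting limits cover counting error only and treat each count as independent.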

Additional observations from a re-analysis of the deposited data

Results flagged for a closer look

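Within the 30 groups of libraries formed by 10 genes and 3 conditions, 4 held a library far from the others by Dixon's criterion, and chance flags about 1 in 20 such groups. Tyrobp stood at 386.7 CPM in SCL replicate 3, against 66.5 to 79.1 CPM in the other SCL libraries. Spp1 stood at 1217 CPM in control replicate 1, against 124.8 to 203.7 CPM in the other controls. Itgax stood at 0.893 CPM in the same control, against 0 to 0.211 CPM, a difference that rests on 16 counts. Aif1 was the single low value, with 66.5 CPM in control replicate 4 against 81.4 to 83.5 CPM in the others.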

How the results depend on the processing

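The 5 rises after SCL stayed called in every alternative and in every fit without 1 library, and the 5 after ECL in every one but the length and GC offset, which left 2 members called higher after ECL. Without 1 library, the counts were 5 to 6 after each lesion. Fitting every gene with at least 1 count called 1 member lower between ECL and SCL, Spp1, and 0 members otherwise. Relative to core genes, members called higher after SCL numbered 1, with 2 under the replicate block, 2 with a sex term, 3 with resting microglia genes as the scale, and 0 to 2 without 1 library. After ECL the last scale gave 2 higher and 1 lower in place of 1 and 3, and leaving out 1 library gave 1 to 2 higher and 2 to 3 lower. The cause of these shifts was not tested.

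Uncalled values changed sign as follows on the log2 scale. After SCL, Lpl was -0.028 under the replicate block and -0.057 to 0.25 without 1 library. After ECL, Clec7a was -0.098 with a sex term and -0.15 to 0.40 without 1 library. Between lesions, the ranges without 1 library were -0.28 to 0.19 for Cst7, -0.15 to 0.061 for Axl and -0.16 to 1.12 for Tyrobp. Relative to core genes, Trem2 after SCL and ECL was 0.044 and 0.14 without the C1q genes and 0.27 and 0.36 on the scale of resting microglia genes, and Aif1 after ECL 0.20 and 0.43. With the offset, Aif1 was -0.19 and Cst7 -0.046 after SCL and Cd68 -0.046 after ECL. Without 1 library, Aif1 was -0.046 to 0.13 after SCL and -0.24 to 0.11 after ECL, and Spp1 after ECL -0.55 to 0.70. Between lesions on this scale, a sex term gave -0.11 for Cst7 and -0.13 for Axl, the sum of core genes -0.026 and -0.015, and Trem2 was 0.091 without C1q genes and 0.094 with resting genes. Ranges there without 1 library were -0.058 to 0.23 for Cst7, -0.0027 to 0.23 for Axl, -0.12 to 0.074 for Trem2, -0.28 to 0.063 for Aif1, -0.39 to 0.053 for Lpl and -0.23 to 0.080 for Clec7a.

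Replicate numbers did not pair the libraries throughout: of 12 pairs with the same number, 5 had deviations correlated over 0.1 (r from -0.145 to 0.533). Pairs with different numbers had r from -0.393 to 0.35. The same-number pairs ECL 1 with SCL 1 (0.533) and control 3 with ECL 3 (0.41) lay above that range. The column headings carry numbers that differ from these replicate numbers, which come from the titles. By the headings, ECL 1 and SCL 1 share number 3 and are female. Control 3 has number 3 and is female, while ECL 3 has number 2 and is male. Whether some libraries with the same number of either kind share an origin was not tested. With the number of the titles as a block, which drops control replicate 5, 5 members were called higher after each lesion. The number of all genes called higher was then 1314 in place of 1504 (SCL) and 1536 in place of 1708 (ECL). Low counts limited Itgax, which could be fitted only among all genes with at least 1 count.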
